A study of Mus musculus with 21 samples.

Results

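The cathepsins are the proteases of the lysosome, and 10 of their genes were followed across myeloid cells sorted from mouse adipose tissue: Ctsa, Ctsb, Ctsc, Ctsd, Ctsf, Ctsh, Ctsk, Ctsl, Ctss and Ctsz. They were chosen by name, with symbols matched to the Ensembl identifiers of the table, and are 10 of the 54532 genes listed. All 10 passed the filter on low counts, as did 22935 genes in all. The mice were male C57BL/6 animals kept for 16 weeks on a normal diet (lean) or a high fat diet (obese). Cells were freed with collagenase and sorted by flow cytometry, and amplified RNA was sequenced in 21 libraries, 3 in each of 7 groups. Lean and obese mice each gave MHCIIlow macrophages, macrophages with MHC class II but without CD11c (CD11c- below) and monocyte-derived cells, while macrophages with both surface proteins (CD11c+ below) came from obese mice only. No label names the fat depot, the mice behind a library or any pooling, so each p-value measures the spread between these samples, which may be technical.

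Cathepsins are made as inactive proenzymes, receive a mannose 6-phosphate tag in the Golgi, are carried by receptors to endosomes, and are cut to the active form in the acid lysosome. Most are cysteine proteases (Ctsb, Ctsc, Ctsf, Ctsh, Ctsk, Ctsl, Ctss and Ctsz here), whereas Ctsd is an aspartic protease and Ctsa a serine carboxypeptidase. In macrophages they digest engulfed proteins and dying cells, and in antigen-presenting cells they trim the invariant chain that guards the peptide groove of MHC class II. Some are also secreted, and Ctsk and Ctss can cut collagen or elastin outside the cell.

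Between 11245851 and 35568948 reads were counted per library, with lean monocyte-derived replicate 3 the shallowest. The 8 macrophage markers summed to 4945 to 7901 CPM (counts scaled to a common library total, here the raw one) in the macrophage libraries, to 1452 to 2297 in obese monocyte-derived cells and to 576 to 1794 in lean ones. The 5 monocyte markers were highest in monocyte-derived cells and rested there on Fn1 and Ccr2, since Ly6c2 stayed at 3.21 ± 1.91 CPM in the lean group (SD, n = 3) and 4.36 ± 1.28 in the obese group. Sample titles call this sort gate P3. Dendritic cell markers were also highest in it, at 670 to 1449 CPM in lean and 467 to 937 in obese libraries. The name monocyte-derived therefore does not settle which cells the gate holds, and their identity was not tested. Lean monocyte-derived replicate 2 stood apart from its group, with 15060 CPM of monocyte markers against 4394 and 3958, and with the highest macrophage sum of the 3. All 11 fibroblast markers were detected in every group. Their sum was 241 to 973 CPM in lean libraries and 612 to 2468 in obese ones, highest in the library numbered 2 of every obese subset. Neither fewer cells of a type nor less RNA per cell can be told apart in such bulk samples.

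Cathepsin mRNA made up between 0.24% (lean monocyte-derived cells) and 1.22% (CD11c+ macrophages) of the counts, as group means. The 10 genes together took 11440 to 12570 CPM in CD11c+ macrophages, 9123 to 10640 in obese and 6217 to 7489 in lean MHCIIlow macrophages, 7578 to 9130 in obese and 5043 to 5759 in lean CD11c- macrophages, and 3930 to 4961 in obese and 1737 to 3289 in lean monocyte-derived cells. Libraries of lean and obese mice did not overlap in any of these subsets. The sums are not corrected for gene length and weigh abundant genes most. Ctsb had the highest CPM of the members in all groups but lean monocyte-derived cells. From here on CPM are scaled by TMM, a correction for differences in library composition, and given as mean ± SD with n = 3. The gene with the widest span was Ctsk, the collagen-degrading enzyme best known from osteoclasts, with 72.7-fold between its highest and lowest group means. The narrowest was Ctsh, an aminopeptidase, with 1.21-fold. Ctsb, an endopeptidase and dipeptidase that is among the most abundant lysosomal proteases, was the only member whose 7 groups were all separate from their neighbours in the order of means. That order ran from 5963 ± 57.6 CPM in CD11c+ macrophages through 5143 ± 383 (obese MHCIIlow), 4318 ± 260 (obese CD11c-), 3110 ± 378 (lean MHCIIlow), 2615 ± 164 (lean CD11c-) and 1623 ± 269 (obese monocyte-derived) to 514 ± 271 in lean monocyte-derived cells.

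**Figure D1:**
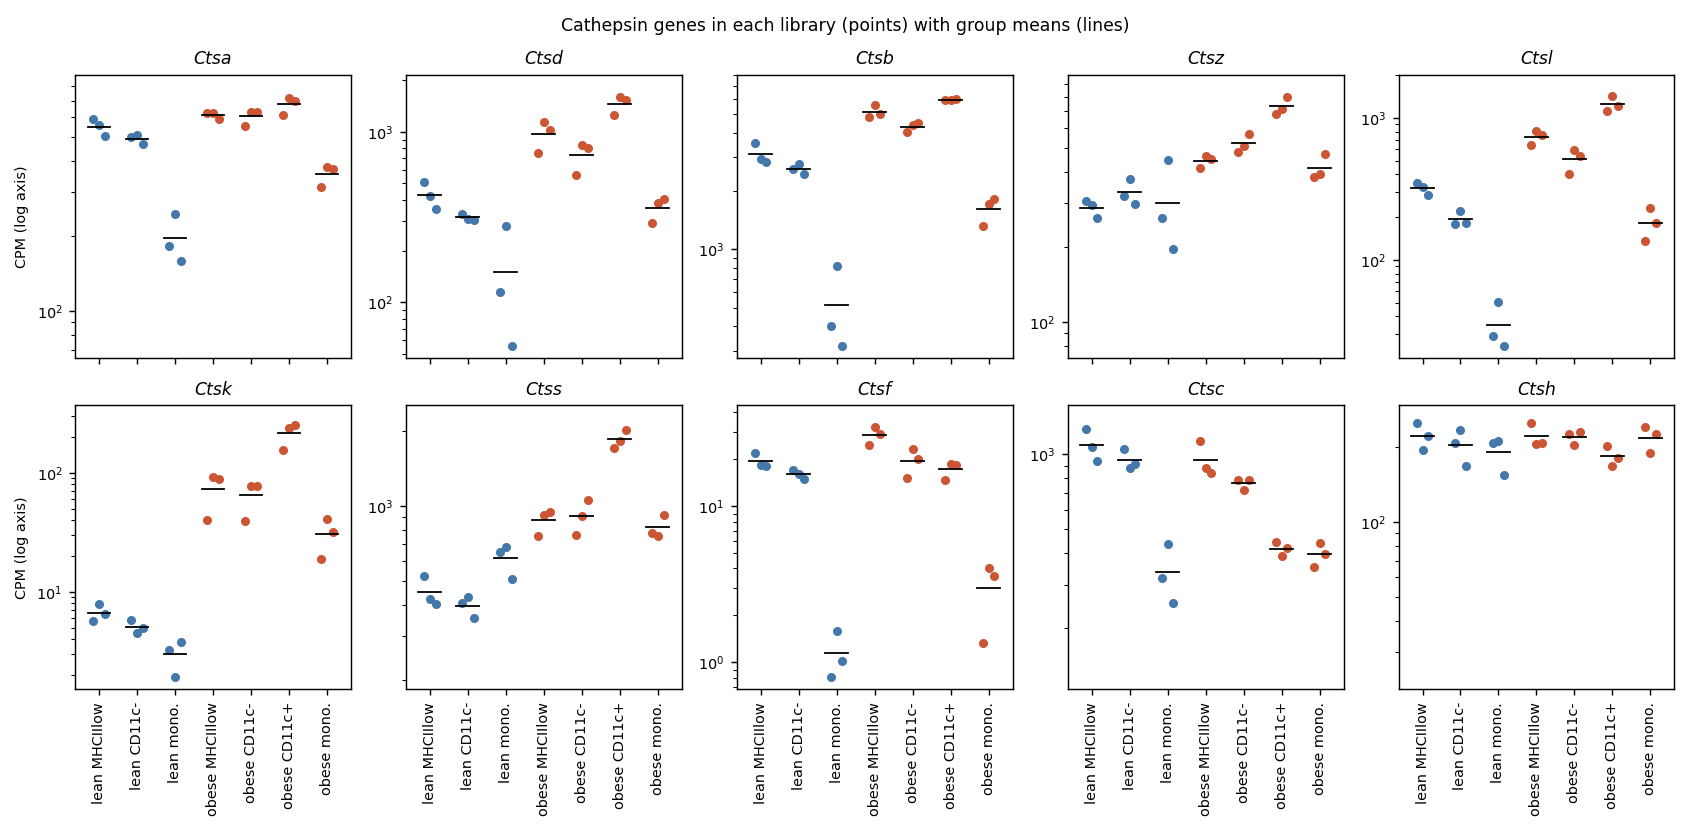
CPM of each cathepsin gene on a log axis in the 21 libraries; points are libraries (blue lean, red obese) and lines are group means. Ctsk lies below 8 CPM in all lean libraries and above 18 CPM in all obese ones, Ctsc falls to 418 CPM in CD11c+ macrophages, and Ctsh stays between 155 and 249.5 CPM in every library.

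Per kilobase of its principal transcript, which allows genes to be compared, Ctsb led in the macrophage groups except CD11c+, and Ctss led elsewhere. Ctss, which trims the invariant chain and stays active at neutral pH, made up 39.9 ± 5.76% of the summed per-kilobase level in lean monocyte-derived cells and 31.7 ± 2.23% in obese ones. In lean MHCIIlow macrophages its share was 14.5 ± 0.433%, against 28.6 ± 0.524% for Ctsb and 19.1 ± 0.632% for Ctsc, the dipeptidyl peptidase that activates granule serine proteases. In CD11c+ macrophages Ctsc was down to 3.32 ± 0.397%, with Ctss at 26.9 ± 1.1%, Ctsb at 24.8 ± 1.41%, Ctsd at 13.5 ± 0.96% and Ctsl at 12.6 ± 1.27%. These shares depend on the length used: with all annotated exons joined, Ctsc in lean MHCIIlow macrophages is 11.4% and Ctsl in CD11c+ macrophages 4.76%. Ctsd shares 808 exonic bases with the overlapping gene Gm49369 on its own strand, Ctsl shares 395 with the pseudogene Gm49230 on its strand and 1742 with the antisense gene Gm47123, Ctsb shares 774 with Fdft1 and Ctsa 495 with Pltp on the other strand, and the labels do not state how reads there were assigned.

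**Figure D2:**
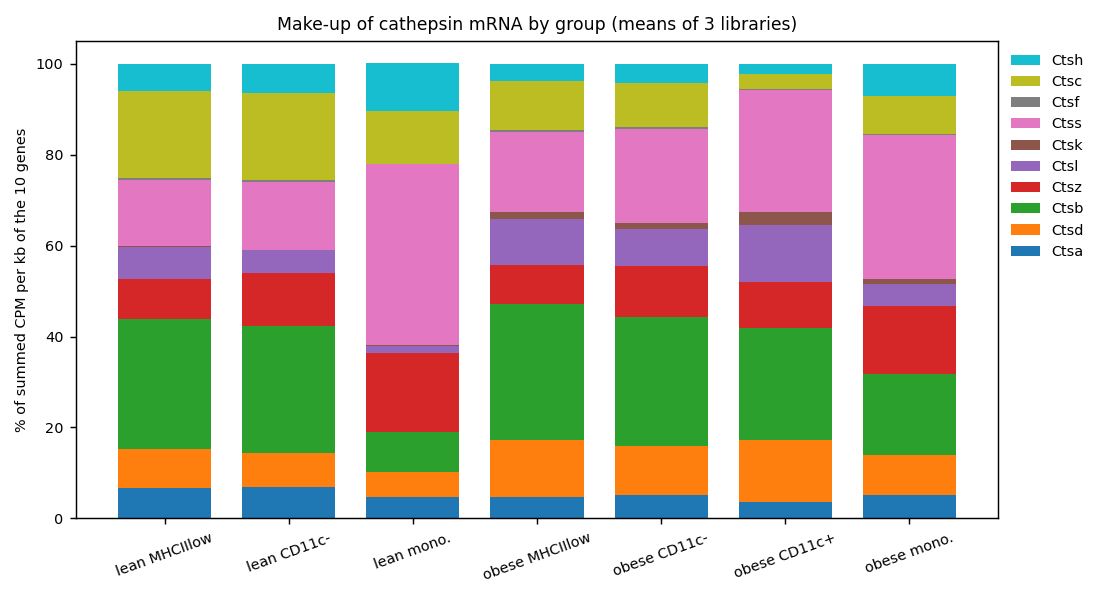
Share of each cathepsin gene in the summed CPM per kb of the 10 genes, in percent, as means of the 3 libraries of a group stacked in one bar. Ctss takes 39.9% in lean monocyte-derived cells and 14.5% in lean MHCIIlow macrophages, and Ctsc narrows from 19.1% there to 3.32% in CD11c+ macrophages.

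Promoter sequence was looked at because several members rose with obesity. RefSeq (GRCm38.p6) holds a window from 250 bases before to 50 after the start for 8 of the 10 genes, all but Ctsb and Ctsh. The windows were searched for CACGTG, the palindromic E-box core of the element through which Tfeb and its relatives act on lysosomal genes. It occurred in the windows of 3 of 8 members, Ctsd, Ctsf and Ctsl, and in 7.15% of all 32851 promoter windows. Those of Ctsd, Ctsl and Ctsf are shown because they hold the core, and that of Ctsk because its mRNA differed most between diets; CACGTG is in capitals and each reads 5′ to 3′ on the strand of the gene.
Ctsd, chr7:142387778-142388077, minus strand: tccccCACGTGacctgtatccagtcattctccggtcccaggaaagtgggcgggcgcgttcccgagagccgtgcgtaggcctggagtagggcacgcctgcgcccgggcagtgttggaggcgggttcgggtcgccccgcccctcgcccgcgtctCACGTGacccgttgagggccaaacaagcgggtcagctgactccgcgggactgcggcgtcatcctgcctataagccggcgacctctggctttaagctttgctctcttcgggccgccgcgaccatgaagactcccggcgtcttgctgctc
Ctsl, chr13:64370471-64370770, minus strand: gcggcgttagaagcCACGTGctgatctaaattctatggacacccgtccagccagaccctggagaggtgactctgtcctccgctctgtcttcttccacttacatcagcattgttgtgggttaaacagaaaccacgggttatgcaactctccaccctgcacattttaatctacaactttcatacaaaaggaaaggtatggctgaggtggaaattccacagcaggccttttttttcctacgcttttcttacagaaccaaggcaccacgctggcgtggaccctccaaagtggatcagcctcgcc
Ctsf, chr19:4854915-4855214, plus strand: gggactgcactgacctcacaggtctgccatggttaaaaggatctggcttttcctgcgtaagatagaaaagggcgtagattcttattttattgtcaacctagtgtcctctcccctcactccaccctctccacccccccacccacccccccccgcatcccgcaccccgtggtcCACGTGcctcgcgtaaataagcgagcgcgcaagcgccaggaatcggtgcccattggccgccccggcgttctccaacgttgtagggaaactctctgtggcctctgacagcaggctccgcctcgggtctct
Ctsk, chr3:95498960-95499259, plus strand: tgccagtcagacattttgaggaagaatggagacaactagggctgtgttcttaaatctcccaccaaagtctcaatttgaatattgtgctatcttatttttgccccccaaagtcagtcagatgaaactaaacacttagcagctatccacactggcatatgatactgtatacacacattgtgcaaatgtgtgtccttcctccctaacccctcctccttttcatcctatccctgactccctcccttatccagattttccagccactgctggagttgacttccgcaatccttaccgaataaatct
The cores of Ctsd begin 245 and 98 bases before the RefSeq start, that of Ctsl 236 and that of Ctsf 79. RefSeq's start lies 370 bases downstream of the first annotated base of the gene in GENCODE for Ctsl and 211 for Ctsd. The Ctsl core and the Ctsd core at 98 bases therefore lie inside the gene as GENCODE draws it. Another window would hold other letters. A TGACTCA or TGAGTCA was in no member's window (5.2% of all windows), GAGGAAGT or its reverse complement was in those of Ctsc and Ctss (3.2%), and CATGTG or CACATG in that of Ctss (14.2%). Of the members called between diets in both macrophage subsets, Ctsd and Ctsl held the CACGTG core, while Ctsk, Ctss and Ctsz did not and Ctsb had no window. Ctsf held the core and was not called in either macrophage subset, though it was called higher in monocyte-derived cells. These matches are a description of letters and no evidence of binding.

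The first question was how the diets differ. In MHCIIlow macrophages 6 of the 10 cathepsins rose with obesity and none fell, at an adjusted p under 0.05 in edgeR's quasi-likelihood test over all genes. Among all genes tested 16.8% were called higher and 13.8% lower in this comparison. In CD11c- macrophages 6 again rose and none fell, against 16.8% and 15.6% of all genes. The called genes were Ctsb, Ctsd, Ctsk, Ctsl, Ctss and Ctsz in both subsets. The median log2 difference of the 10 was 0.68 in MHCIIlow and 0.69 in CD11c- macrophages, beside -0.07 and -0.10 over all genes.

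Ctsk differed most. The lean MHCIIlow libraries held 5.65, 7.85 and 6.51 CPM and the obese ones 40.3, 92.2 and 88.3, an 11-fold rise (log2 difference 3.46, SE 0.37, adjusted p = 5.33e-06). The lean CD11c- libraries held 5.81, 4.51 and 4.98 CPM and the obese ones 39.1, 76.9 and 77.8 (12.7-fold, log2 difference 3.66, SE 0.37, adjusted p = 3.15e-06). Each obese library was above each lean one, and replicate 1 was the lowest of the 3 obese libraries in both subsets. The gene lies at chr3:95499256-95509362 (GRCm38), next to Ctss at chr3:95526786-95556403.

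Ctsl, an endopeptidase of the papain type, and Ctss rose as well. Ctsl read 348, 327 and 285 CPM in lean MHCIIlow macrophages and 641, 808 and 760 in obese ones (log2 difference 1.20, SE 0.22, adjusted p = 0.000506). In CD11c- macrophages it went from 180.2, 221 and 182 to 405, 591 and 542 CPM (2.63-fold, adjusted p = 0.000103). Both contrasts left a gap between the diets. Ctss read 524, 422 and 404 CPM in lean MHCIIlow macrophages and 757, 918 and 947 in obese ones (log2 difference 0.96, SE 0.15, adjusted p = 0.000109). In CD11c- macrophages it read 407, 429 and 356 CPM on the normal diet and 761, 912 and 1052 on the high fat diet (log2 difference 1.19, SE 0.15, adjusted p = 9.86e-06). Ctsk, Ctsl and Ctss kept their calls in both subsets under all 15 other settings tried, among them leaving out each library in turn.

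Ctsd, which also frees saposins from their precursor, read 505, 419 and 354 CPM in lean MHCIIlow macrophages and 749.7, 1139 and 1024 in obese ones (log2 difference 1.19, SE 0.37, adjusted p = 0.0225). Ctsb rose by 0.73 on the log2 scale in MHCIIlow (SE 0.22, adjusted p = 0.0198) and 0.72 in CD11c- macrophages (SE 0.22, adjusted p = 0.0184). Ctsz, a carboxypeptidase, was 0.63 and 0.65 higher on that scale (SE 0.19 each, adjusted p = 0.0196 and 0.014). None of these 3 genes had overlapping libraries between diets, yet their calls were lost when most of the libraries were left out 1 at a time. In MHCIIlow macrophages Ctsd and Ctsz lost the call without any library other than obese replicate 1, and Ctsb without any other than obese replicate 1 or lean replicate 1, with adjusted p up to 0.116. In CD11c- macrophages Ctsb and Ctsd lost it without any but obese replicate 1, and Ctsz without any but obese replicate 1 or lean replicate 2, with adjusted p up to 0.1; the log2 differences stayed between 0.58 and 1.39 in both subsets.

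The other 4 members did not pass. Ctsa, the protective protein of a lysosomal complex with Neu1 and Glb1, differed by 0.16 in MHCIIlow (adjusted p = 0.381) and 0.30 in CD11c- macrophages (adjusted p = 0.0865). Ctsf, a little studied cysteine protease, differed by 0.55 (adjusted p = 0.0894) and 0.29 (adjusted p = 0.383). With the obese and lean replicate numbers as blocks, Ctsa was called in CD11c- macrophages (adjusted p = 0.0362) and Ctsf in MHCIIlow macrophages (adjusted p = 0.0236). Such a block takes the spread between numbers out of the error. The diets are compared across numbers, so these p-values can be too small. Ctsc differed by -0.19 (SE 0.16, adjusted p = 0.377) and -0.30 (SE 0.16, adjusted p = 0.159), and Ctsh by 0.00 (SE 0.14, adjusted p = 0.988) and 0.11 (SE 0.14, adjusted p = 0.563). Fitted on the CD11c- libraries of both diets alone, Ctsc was called lower (-0.34, adjusted p = 0.0264), and its libraries did not overlap there.

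Markers of other cells moved with these diet differences. Of 11 fibroblast markers 3 rose and none fell in each macrophage subset. Dendritic cell markers were lower on the high fat diet: their sum was 333 to 412 CPM in lean and 114 to 207 in obese MHCIIlow macrophages (3 of 8 fell, none rose). In CD11c- macrophages it was 269 to 335 CPM in lean and 56.5 to 89.7 in obese libraries (4 of 8 fell, none rose). Mesothelial markers summed to 22.9 to 36.9 CPM in lean and 8.54 to 16.6 in obese MHCIIlow macrophages, and to 21.5 to 29.2 and 7.66 to 20.4 in CD11c- macrophages, with 2 of 4 called lower in each. Their part in the cathepsin differences was not tested.

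**Figure D3:**
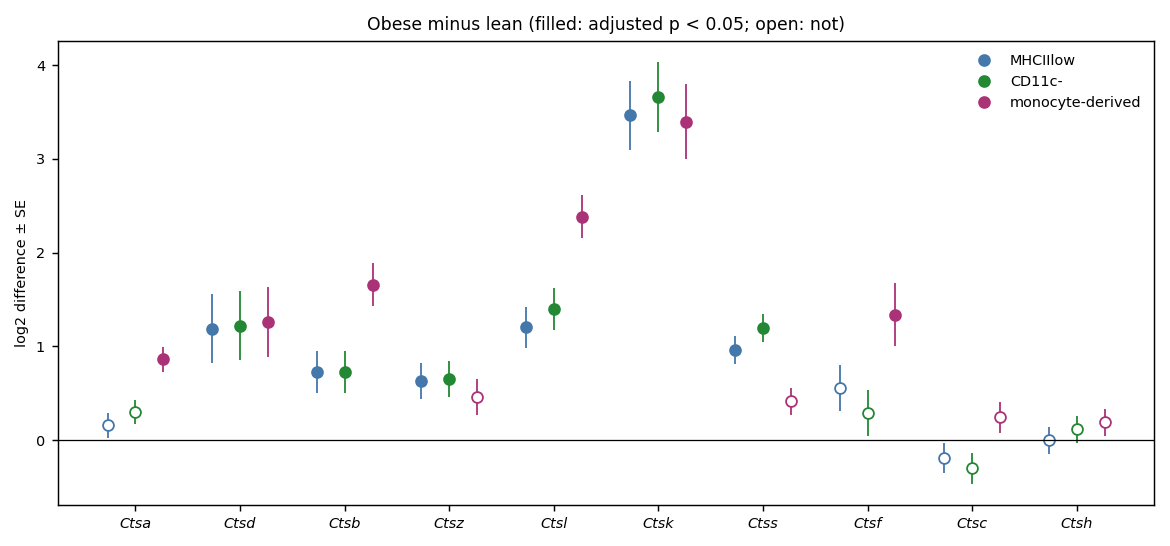
Obese minus lean on the log2 scale (y axis, ± SE) for the 10 genes in MHCIIlow macrophages, CD11c- macrophages and monocyte-derived cells; filled circles have an adjusted p under 0.05. Ctsk lies near 3.4 to 3.7 in the 3 subsets, Ctsl is highest in monocyte-derived cells at 2.38, and Ctsh lies between 0.00 and 0.19.

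In monocyte-derived cells 6 of 10 cathepsins rose and none fell, where 7.45% of all genes were called higher and 9.75% lower. That background rested on single libraries: 3944 genes were called in all, 9904 without lean replicate 2, 1708 without lean replicate 3, 2237 without obese replicate 3 and 122 with these 6 libraries alone. The share of calls that were higher was 43.3%, and 56.5% without lean replicate 3, 71.1%, 60.3% and 76.1% without obese replicate 1, 2 and 3, and 79.5% with these 6 libraries alone. Ctsa, Ctsb, Ctsd, Ctsf, Ctsk and Ctsl passed; Ctss and Ctsz, called in the macrophages, did not. Ctsl went from 29.4, 50.3 and 24.8 CPM to 136, 231 and 181 (5.21-fold, log2 difference 2.38, SE 0.23, adjusted p = 1.38e-06). Ctsk went from 3.23, 1.93 and 3.77 CPM to 18.8, 40.9 and 32.1 (10.5-fold, log2 difference 3.40, SE 0.40, adjusted p = 3.93e-05). Ctsb went from 403, 823 and 317 CPM to 1320, 1721 and 1829 (log2 difference 1.66, SE 0.23, adjusted p = 9.15e-05). These 3 genes were separate between the diets, and replicate 2 was the highest lean library for Ctsl and Ctsb.

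Ctsa rose from 183, 245 and 159 CPM to 315, 379.9 and 372 (log2 difference 0.86, SE 0.13, adjusted p = 0.000256). Ctsd rose by 1.26 (SE 0.37, adjusted p = 0.0286), with lean libraries at 115, 279 and 55.6 CPM and obese ones at 292, 385 and 401. Ctsf was scarce, at 0.808, 1.59 and 1.03 CPM against 1.33, 4.06 and 3.58, and its libraries overlapped although the test called it (log2 difference 1.34, SE 0.33, adjusted p = 0.0113). Ctsd lost its call without lean replicate 1 or 3 or obese replicate 2 or 3 (adjusted p up to 0.0825), and its difference was 0.87 without lean replicate 3 and 2.11 without lean replicate 2. Ctsf lost its call without lean replicate 3 (adjusted p = 0.051). Fitted on these 6 libraries alone, Ctsk and Ctsl kept the call, while Ctsa had an adjusted p of 0.0701, Ctsb of 0.0605, Ctsd of 0.21 and Ctsf of 0.211. Ctss (log2 difference 0.41, adjusted p = 0.0581) and Ctsz (0.46, adjusted p = 0.1) passed with the replicate block, at 0.00826 and 0.0145. That block leaves the spread between numbers out of the error of a diet comparison, so both values can be too small. Macrophage markers (4 of 8 higher, none lower) and fibroblast markers (6 of 11 higher, none lower) also rose in these cells with obesity, and their part in the cathepsin differences was not tested.

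Whether the diet difference itself differed between subsets was tested as a difference of differences. Between CD11c- and MHCIIlow macrophages 0 members were called by edgeR and 0 had an unadjusted p under 0.05; 0% of all genes were called higher and 0% lower, with 634 genes at an unadjusted p under 0.05. DESeq2 called 3 genes there, no member among them. The Ctsk differences of those 2 subsets stood 0.20 apart (SE 0.49). Between monocyte-derived cells and MHCIIlow macrophages 2 members were called higher and none lower, against 1.91% and 2.43% of all genes. The diet difference of Ctsl was 1.18 larger on the log2 scale in the monocyte-derived cells (SE 0.31, adjusted p = 0.0326). That of Ctsa, which did not pass in MHCIIlow macrophages, was 0.71 larger (SE 0.19, adjusted p = 0.0336). Against CD11c- macrophages none was called higher and 1 lower, where 3.86% and 2.51% of all genes were. The obese minus lean value of Ctss was 0.41 in monocyte-derived cells, where it did not pass, and 1.19 in CD11c- macrophages, a difference of -0.78 (SE 0.21, adjusted p = 0.0303).

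All 3 lost their calls when certain libraries were left out 1 at a time. The log2 differences then stayed at 0.58 to 0.95 for Ctsa, 0.99 to 1.60 for Ctsl and -0.90 to -0.50 for Ctss. With only the compared groups fitted none passed (adjusted p = 0.105 for Ctsa, 0.0881 for Ctsl and 0.0855 for Ctss). Ctsa lost its call without lean MHCIIlow replicate 1 or 2, lean monocyte-derived replicate 1 or 3, or replicate 2 or 3 of either obese group (adjusted p up to 0.0986), and Ctsl without those or lean MHCIIlow replicate 3 (adjusted p up to 0.088). Ctss lost it without any library but lean monocyte-derived replicates 2 and 3 (adjusted p up to 0.308). With the replicate block Ctsb (1.02) and Ctss (-0.54) were also called against MHCIIlow macrophages, and Ctsa (0.58), Ctsb (1.01) and Ctsl (1.02) against CD11c- macrophages.

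The CD11c+ macrophages of obese mice had the highest mean of 7 groups for Ctsa, Ctsb, Ctsd, Ctsk, Ctsl, Ctss and Ctsz. Against CD11c- macrophages 3 members were higher and 1 lower, where 1.38% and 2.11% of all genes were. Ctsk read 157, 239.8 and 252 CPM against 39.1, 76.9 and 77.8 (3.35-fold, log2 difference 1.74, SE 0.33, adjusted p = 0.00904). Ctsl read 1124, 1433 and 1214 CPM against 405, 591 and 542 (log2 difference 1.29, SE 0.22, adjusted p = 0.00348). Ctss read 1709, 1825 and 2015 CPM against 761, 912 and 1052 (log2 difference 1.03, SE 0.15, adjusted p = 0.000924). The shares of all genes called here moved with single libraries: 801 genes were called in all, 81 without CD11c+ replicate 2, 134 without CD11c+ replicate 3 or CD11c- replicate 1, 199 without CD11c- replicate 3, 337 without CD11c- replicate 2 and 393 without CD11c+ replicate 1. For Ctsk, Ctsl and Ctss the CD11c+ libraries lay above all libraries of the other 6 groups. The same held for Ctsb, Ctsd and Ctsz, which were not called against CD11c- macrophages. The share of all genes with their highest mean, or such a gap, in CD11c+ macrophages was not counted. These tallies therefore do not set cathepsins apart from other genes.

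Ctsc went the other way. Its CD11c+ libraries held 444.5, 389 and 420.1 CPM, below the 789, 721 and 792 of CD11c- macrophages (log2 difference -0.88, SE 0.17, adjusted p = 0.00587) and the 1136, 880.1 and 843 of obese MHCIIlow macrophages (log2 difference -1.19, SE 0.17, adjusted p = 4.76e-05). Its level in CD11c+ macrophages overlapped that of obese monocyte-derived cells, which held 353, 441 and 398 CPM. Ctsc and Ctss had the lowest correlation of the 45 member pairs over the 21 libraries (r = -0.43).

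Against MHCIIlow macrophages of obese mice 4 members were higher in CD11c+ macrophages and 1 lower, where 5.89% and 8.42% of all genes were. Ctsk (log2 difference 1.56, SE 0.33, adjusted p = 0.00397), Ctss (1.08, SE 0.15, adjusted p = 4.37e-05), Ctsl (0.77, SE 0.22, adjusted p = 0.02) and Ctsz (0.73, SE 0.19, adjusted p = 0.0145) were higher, and Ctsc lower as given. Ctsd differed by 0.99 from CD11c- (SE 0.37, adjusted p = 0.146) and 0.59 from MHCIIlow macrophages (SE 0.36, adjusted p = 0.311) without passing, though no libraries overlapped. With only the compared groups in the edgeR fit Ctsd was called in both comparisons (adjusted p = 0.0108 and 0.0308). The same held without the lean monocyte-derived group in the fit (adjusted p = 0.0026 and 0.0189), a setting added after seeing the data. With the replicate number as a block, Ctsz was also called against CD11c- macrophages (0.49, adjusted p = 0.0341) and Ctsf against MHCIIlow macrophages (-0.72, adjusted p = 0.00809).

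Some of these calls were lost when 1 library was left out. Ctsc lost its call against CD11c- macrophages without CD11c- replicate 1 or 3 or CD11c+ replicate 2 or 3 (adjusted p up to 0.104). Ctsk lost its call there without CD11c- replicate 1 or CD11c+ replicate 2 (up to 0.0589). Ctsl and Ctsz lost theirs against MHCIIlow macrophages without CD11c+ replicate 2 or 3 or MHCIIlow replicate 1 or 3 (up to 0.151). Osteoclast markers moved with Ctsk among the obese macrophages: of 6 genes, 5 tested, 3 were higher than in CD11c- and 4 higher than in MHCIIlow macrophages. Their sum was 568 to 698 CPM in CD11c+, 200 to 304 in CD11c- and 113 to 242 in obese MHCIIlow macrophages and 16.1 to 32.1 in the lean macrophages. Obese monocyte-derived cells had 110.8 to 147.7 CPM. Lean ones had 60.2 to 124.9, above the lean macrophages, although Ctsk had its lowest group mean there. The sum was made up mostly of Atp6v0d2, a subunit of the proton pump (552 ± 72.4 CPM in CD11c+ macrophages), and Acp5 (92.7 ± 3.08), while Calcr (0.0111 CPM) and Oscar (0.0339 CPM) were near 0. Other marker sums were also higher in CD11c+ than in CD11c- and obese MHCIIlow macrophages. T and NK cell markers summed to 205 to 227 CPM, against 89.5 to 121.5 and 25.1 to 66.9, with 1 of 7, Il7r, called higher in each comparison. Endothelial markers summed to 99.2 to 149 CPM, against 50.9 to 95.9 and 29.7 to 61.0, with 4 of 5 called higher than in MHCIIlow macrophages. Adipocyte markers summed to 173 to 196 CPM, against 99.0 to 145 and 41.6 to 78.6, with 1 of 7 called higher than in MHCIIlow macrophages and most of the sum from Fabp4. The part of any of these lists in the cathepsin differences was not tested.

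**Figure D4:**
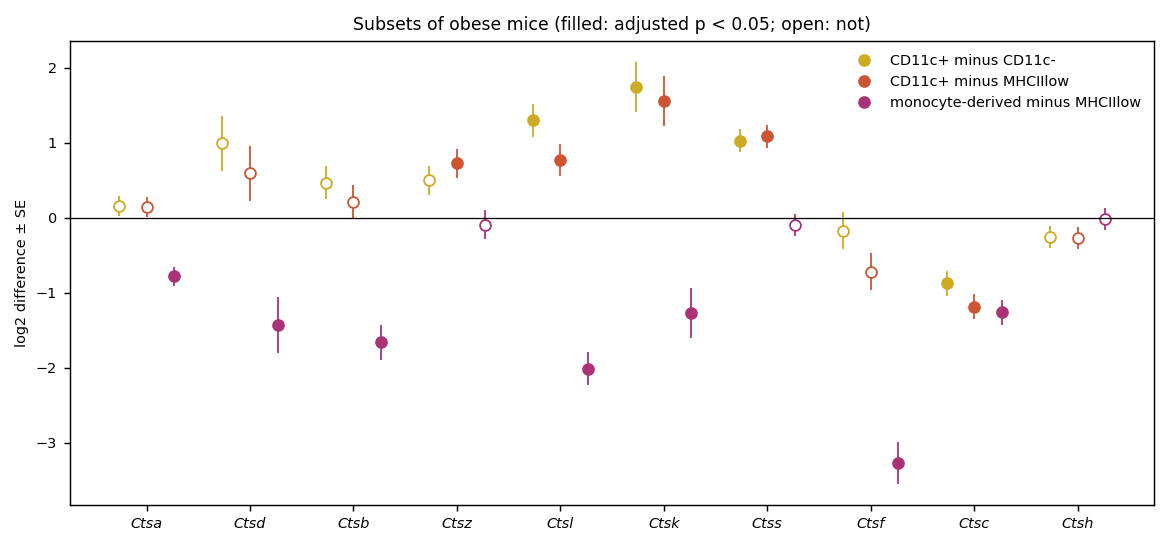
Log2 differences (y axis, ± SE) between subsets of obese mice for the 10 genes; filled circles have an adjusted p under 0.05. Ctsk, Ctsl and Ctss lie above 0 in both comparisons of CD11c+ macrophages, Ctsc lies below 0 in all 3 comparisons drawn, and Ctsf is lowest in monocyte-derived cells at -3.27.

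Few cathepsins were called between MHCIIlow and CD11c- macrophages, which with 3 libraries a group does not show equal levels. In obese mice edgeR called 0 of 10 members, 2 had an unadjusted p under 0.05 and DESeq2 called 0; 1.19% of all genes were called higher and 1.85% lower in CD11c- macrophages. In lean mice edgeR called 0, 1 had an unadjusted p under 0.05 and DESeq2 called 1, where 1.05% and 0.253% of all genes were called higher and lower. Ctsl had the largest size of the members tested in lean mice, at -0.72 (SE 0.22, adjusted p = 0.134), and read -0.52 in obese mice (SE 0.21, adjusted p = 0.263). Its CD11c- libraries were below all MHCIIlow libraries in both diets. It passed with the replicate block in obese mice (adjusted p = 0.0265). Ctsf differed by -0.55 in obese mice (SE 0.24, adjusted p = 0.32). Libraries of the subsets were also apart for Ctsb, Ctsc, Ctsf and Ctsz in obese mice. In lean mice they were apart for Ctsb, Ctsd and Ctsf, and the share of all genes with such a gap was not counted for either diet.

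Monocyte-derived cells held less of most cathepsins than the macrophages. In obese mice 7 members were lower than in MHCIIlow macrophages and none higher (15.3% of all genes called higher, 17.5% lower), 7 lower than in CD11c- macrophages (11% and 12.8%), and 8 lower than in CD11c+ macrophages (19.3% and 19.4%). The 7 were Ctsa, Ctsb, Ctsc, Ctsd, Ctsf, Ctsk and Ctsl in the first and the second of these comparisons. In the last, Ctss and Ctsz joined and Ctsc did not pass. Ctsf fell furthest, from 24.8, 32.1 and 29.1 CPM in MHCIIlow macrophages to 1.33, 4.06 and 3.58 (log2 difference -3.27, SE 0.28, adjusted p = 1.65e-08). Ctsl differed by -2.01 (SE 0.22, adjusted p = 5.77e-07) and Ctsb by -1.66 (SE 0.23, adjusted p = 8e-06) from MHCIIlow macrophages. Ctss did not separate from them, with a difference of -0.09 (SE 0.15, adjusted p = 0.665), nor did Ctsz, at -0.09 (SE 0.19, adjusted p = 0.743).

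Ctsd against CD11c- macrophages was at the threshold (-1.03, adjusted p = 0.0499) and lost its call without any 1 of the 6 libraries (adjusted p up to 0.227). Its call against MHCIIlow macrophages was lost without monocyte-derived replicate 1 (adjusted p = 0.061). Ctsk against CD11c- macrophages (-1.08, adjusted p = 0.0242), where libraries overlapped, lost it without CD11c- replicate 2 or 3 or monocyte-derived replicate 1 or 3 (up to 0.119).

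In lean mice 7 members were lower in monocyte-derived cells than in MHCIIlow macrophages and 1 higher, where 21% and 25% of all genes were. Against CD11c- macrophages 6 were lower and 1 higher, where 20.1% and 23.6% of all genes were. Ctss was the higher one. It read 652, 686 and 508 CPM in the monocyte-derived cells, above the 407, 429 and 356 of CD11c- macrophages (log2 difference 0.63, SE 0.15, adjusted p = 0.00186) and overlapping the 524, 422 and 404 of MHCIIlow macrophages (0.45, SE 0.15, adjusted p = 0.0168). The smaller difference lost its call without any MHCIIlow library or monocyte-derived replicate 1 or 2 (adjusted p up to 0.123). Ctsf (-4.05, SE 0.32, adjusted p = 1.98e-09), Ctsl (-3.19, SE 0.24, adjusted p = 1.13e-09) and Ctsb (-2.60, SE 0.24, adjusted p = 1.7e-08) fell furthest against MHCIIlow macrophages. Ctsd lost its call against CD11c- macrophages (-1.07, adjusted p = 0.0262) without any library but monocyte-derived replicate 2, with adjusted p up to 0.1. Its difference was -1.90 without monocyte-derived replicate 2 and -0.68 without monocyte-derived replicate 3. Ctsk lost its call against MHCIIlow macrophages (-1.20, adjusted p = 0.0224) without MHCIIlow replicate 2 or monocyte-derived replicate 2 (up to 0.108). Macrophage markers moved with these differences: in the 5 comparisons 7 or 8 of 8 were lower in monocyte-derived cells and none higher. Dendritic cell markers moved the other way, with monocyte-derived sums of 670 to 1449 CPM on the normal diet and 467 to 937 on the high fat diet, against macrophage sums of 269 to 412 and 49.9 to 207. Between 5 and 7 of 8 were called higher in these 5 comparisons and none lower, and Flt3, at 80.4 CPM in lean and 41.8 in obese monocyte-derived cells, was at most 1.04 CPM in the mean of any macrophage group. The part of either list was not tested.

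Obese libraries of the same number varied together. The library numbered 1 was the lowest of its trio in all 4 obese subsets for Ctsd, Ctsf, Ctsk, Ctsl and Ctsz. For Ctsk it held 0.447 to 0.64 of the mean of the other two, for Ctsd 0.68 to 0.806 and for Ctsl 0.66 to 0.849. Ctsh ran otherwise, with the library numbered 2 the lowest in all 4 subsets. The library numbered 2 was the highest of its trio in all 4 subsets for Ctsf and Ctsl, in 3 for Ctsa and Ctsd, and in 0 for Ctsh and Ctss. The fibroblast sum was also highest in the library numbered 2, and its part in these levels was not tested. The labels do not say what a number stands for. Without the libraries numbered 1, the Ctsk, Ctsl and Ctss calls between diets in both macrophage subsets were kept, while Ctsb and Ctsz passed in neither (adjusted p 0.0581 to 0.0643). Without those numbered 2, Ctsb, Ctsd and Ctsz passed in neither (adjusted p 0.0592 to 0.157).

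**Figure D5:**
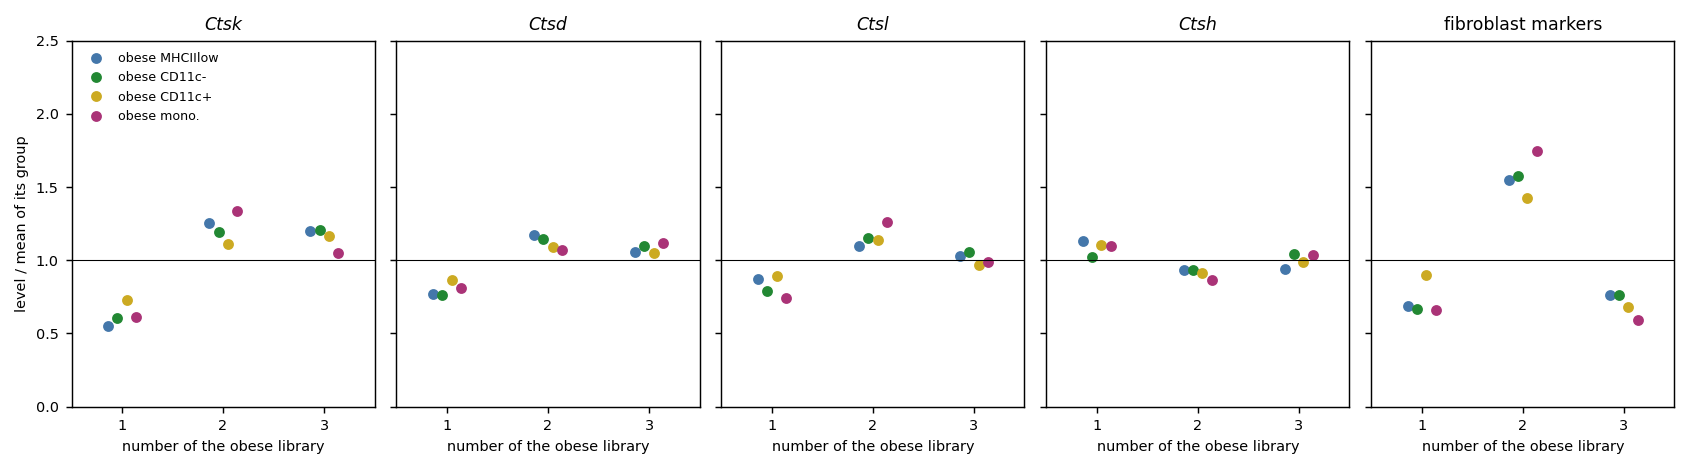
Level of 4 cathepsin genes and summed fibroblast markers in each obese library, divided by the mean of its group of 3 (y axis), by library number (x axis), with 1 color per subset. For Ctsk, Ctsd and Ctsl the libraries numbered 1 lie below 1 in all 4 subsets. Ctsl and the fibroblast markers are highest in those numbered 2.

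Genes that process and deliver cathepsins rose with them between diets. Of the 8 listed, 8 rose in MHCIIlow macrophages, 7 in CD11c- macrophages and 6 in monocyte-derived cells, and none fell, where 16.8%, 16.8% and 7.45% of all genes were called higher. Igf2r, the larger mannose 6-phosphate receptor, went from 46.0 ± 3.55 to 344 ± 126 CPM in MHCIIlow macrophages (log2 difference 2.90, SE 0.33, adjusted p = 9.41e-06). Sort1, a sorting receptor, went from 15.5 ± 2.25 to 71.2 ± 31.6 (2.20, SE 0.27, adjusted p = 1.43e-05), and Gnptab, which makes the tag, from 26.1 ± 1.13 to 66.1 ± 11.9 (1.34, SE 0.11, adjusted p = 1.09e-07). Lgmn, the asparaginyl endopeptidase that cuts proenzymes, rose most in monocyte-derived cells, from 165.5 ± 24.1 to 508 ± 78.1 CPM (1.62, SE 0.14, adjusted p = 3.45e-07). The list's medians were 1.04, 0.98 and 0.68 in these subsets, beside -0.07, -0.10 and -0.04 over all genes.

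Of 4 partners of Ctsa and Ctsd, Psap and Glb1 rose in both macrophage subsets. Psap, the saposin precursor, stood at 8012 ± 371 CPM in CD11c+ macrophages against 4254 ± 316 in CD11c- macrophages (0.91, SE 0.16, adjusted p = 0.00403). Neu1, the sialidase that Ctsa protects, fell in CD11c- macrophages (-0.66, SE 0.15, adjusted p = 0.00258) and rose in monocyte-derived cells (0.66, SE 0.16, adjusted p = 0.00869). Of 12 inhibitor genes 5 were tested, and the largest diet difference in MHCIIlow macrophages was 0.59 for Serpinb6a (adjusted p = 0.107), 1 fell in CD11c- macrophages (Serpinb1a, -0.79) and 2 rose in monocyte-derived cells (Cstb, 1.35, and Serpinb6a, 1.04). Cst3, the secreted cystatin C, ranged from 429 ± 71.9 to 624 ± 87 CPM over the 7 groups.

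Other cathepsins were scarce. Of 13 genes 3 were tested, of which Ctso ranged from 14.1 ± 3.16 to 38.2 ± 1.45 CPM and was lower in monocyte-derived cells than in each macrophage group of the same diet, Ctse stayed below 3 CPM in its group means, and Ctsw, a protease of killer lymphocytes, fell in the 3 diet comparisons from means of 2.89 CPM or less. Of 7 T and NK cell markers, 4 fell and 1 rose in MHCIIlow macrophages, 2 fell and 1 rose in CD11c- macrophages and 1 fell in monocyte-derived cells. Their sum nonetheless was higher in obese macrophages, at 89.5 to 121.5 CPM against 13.1 to 19.1 in CD11c- and 25.1 to 66.9 against 18.4 to 20.7 in MHCIIlow macrophages, and was mostly Il7r, the marker that rose. Their part was not tested. Of 4 transcription factors of the lysosome, Tfeb rose in the 3 diet comparisons (0.61, 0.64 and 0.78) and Mitf in CD11c- macrophages and monocyte-derived cells (0.63 and 0.81). Tfec, Tfe3 and Mitf were lower in obese monocyte-derived cells than in MHCIIlow macrophages, with Tfec at 2.09 ± 0.758 against 19.6 ± 1.46 CPM. The MHC class II genes behaved unlike the cathepsins: 7 of 7 were higher in monocyte-derived cells than in MHCIIlow macrophages of either diet, a split that the sort on MHC class II helps set. Of 5 proenzymes that Ctsc activates, 3 were tested, and their sum was under 4 CPM in every monocyte-derived library.

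Over the 21 libraries the genes whose log2 CPM ran most like a member's were Gng12 for Ctsa (r = 0.993) and Ctsb (0.995), Dab2 for Ctsc (0.973), Steap3 for Ctsd (0.987), Epor for Ctsf (0.992), Wdr45b for Ctsh (0.88), Tlr13 for Ctsk (0.984), Tlr8 for Ctsl (0.983), Echs1 for Ctss (0.987) and Vdac2 for Ctsz (0.975). Next to Tlr13, Ctsk ran most like Rnf128 (0.984) and Gpnmb (0.983), a glycoprotein of lipid-laden macrophages. Among members Ctsa and Ctsb were the most alike pair (0.989). These correlations describe 7 groups of 3 libraries that share subset and diet, and no test was made on them.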

How the data were processed

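RNA was measured in 7 groups of 3 libraries. The deposited values are raw read counts per gene; per the submitters' processing notes the authors used GRCm38 with STAR 2.6.0a, Trim Galore 0.4.5, bcl2fastq and, in Subread 1.4.6-p5, featureCounts. The annotation release, strand setting and treatment of shared reads are not given in the sources used here. Symbols came from GENCODE (mouse), matching 53229 of 54532 identifiers with version and 54409 without. With R 4.3.3, edgeR 4.0.16 (filterByExpr, TMM, robust quasi-likelihood fit) was fitted to 7 group means (residual df 14, common dispersion 0.0502). Tests were two-sided, with Benjamini-Hochberg adjustment over 22935 genes, in 12 comparisons and 3 differences of diet effects; SEs are those the F statistic implies. The fit was tested on simulated data. Alternatives were DESeq2 1.42.0, other scalings, no filter, only the compared groups, replicate blocks and omitted libraries. Deviations from group means over 7904 genes showed that obese title numbers pair samples (18 of 18 pairs with r of 0.108 to 0.778, against -0.705 to 0.242 for unequal numbers). Lean title numbers do not clearly (-0.355 to 0.579). Equal lean description numbers, which differ from the titles in some samples, gave 0.07 to 0.579 in 7 pairs, against -0.4 to 0.639 in 20 unequal pairs. The replicate block used title numbers unless description numbers are named. All 10 members were named by rule; likeness used genes of at least 10 CPM in a group. The members and lists were chosen with earlier results of these data known.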

Additional observations from a re-analysis of the deposited data

Results flagged for a closer look

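The obese minus lean difference differed between subsets for 3 genes, by a test of the difference itself. For Ctsl it was 1.18 larger on the log2 scale in monocyte-derived cells than in MHCIIlow macrophages (SE 0.31, adjusted p = 0.0326 in edgeR's quasi-likelihood test), with obese above lean in every pairing of libraries in both subsets. For Ctsa it was 0.71 larger in the same contrast (SE 0.19, adjusted p = 0.0336), and it did not pass in MHCIIlow macrophages alone (0.16, adjusted p = 0.381). For Ctss the monocyte-derived minus CD11c- difference was -0.78 (SE 0.21, adjusted p = 0.0303), with Ctss not passing in monocyte-derived cells alone (0.41, adjusted p = 0.0581). With only the compared groups fitted none of the 3 passed (adjusted p = 0.0881 for Ctsl, 0.105 for Ctsa and 0.0855 for Ctss). Lean monocyte-derived replicate 2, with the highest macrophage and monocyte marker sums of its group, held the highest Ctsa, Ctsl and Ctss of that group. Without it the differences were 0.95 for Ctsa, 1.60 for Ctsl and -0.67 for Ctss. Its part was not tested further.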

How the results depend on the processing

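Of member values called in the comparisons, 846 kept direction and call under another setting, 138 lost the call and none reversed. Of values not called, 1194 stayed so, 75 gained a call, 96 changed sign without a call in either setting, and 1 reversed. The last was Ctsz in lean monocyte-derived cells against MHCIIlow macrophages, whose difference ran from -0.371 to 0.3 when each library was left out, with -0.371 (adjusted p = 0.0292) without monocyte-derived replicate 2.
The number of called members moved as follows, and the cause was not tested. For diet in CD11c- macrophages it was 6, and 3 without the obese libraries numbered 2 (3 to 6 leaving out 1 library); in MHCIIlow macrophages 6, and 3 (3 to 6); in monocyte-derived cells 6, and 2 with only the compared groups fitted (4 to 9). For the diet effect of monocyte-derived cells minus CD11c- it was 1, then 4 with DESeq2, with no filter or with the replicate block, and 0 with only the compared groups or without the obese libraries numbered 2 (0 to 6). Minus MHCIIlow it was 2, then 4 with the replicate block and 0 with only the compared groups or without those numbered 2 (0 to 4). For CD11c- minus MHCIIlow in lean mice it was 0, and 1 (Ctsl) with DESeq2, with no filter, with only the compared groups, without the lean monocyte-derived group in the fit and with the title block; in obese mice 0, and 1 with no filter or the replicate block. For CD11c+ minus CD11c- it was 4, then 7 with only the compared groups or without the lean monocyte-derived group, and 2 without those numbered 2 (2 to 4); minus MHCIIlow 5, then 7 (Ctsd and Ctsf added) with no filter, with only the compared groups or without the lean monocyte-derived group, and 3 without those numbered 1 or 2 (3 to 5). Settings that omit the lean monocyte-derived group or the obese numbers 1 and a union exon length were added after seeing the data. The block on description numbers changed 1 call (Ctsk, lean monocyte-derived minus CD11c-, -0.82, adjusted p = 0.00165); lean samples share only a number.
Scaling by library totals lowered the share of higher calls among all genes from 41.2% to 29.3% for CD11c+ minus MHCIIlow and from 39.6% to 26.7% for CD11c+ minus CD11c-, and raised it from 49.8% to 59.8% for monocyte-derived minus CD11c+, where Ctsh then passed. It also moved it from 43.9% to 57.1% for the diet effect of monocyte-derived cells minus MHCIIlow and from 80.5% to 68.9% for CD11c- minus MHCIIlow in lean mice, and reversed no member's call. DESeq2's size factors gave 49.7% for CD11c+ minus CD11c-. Genes called in all went from 3944 to 122 (diet, monocyte-derived), 10551 to 6421 and 10027 to 5385 (lean monocyte-derived minus MHCIIlow and minus CD11c-), 801 to 3172 (CD11c+ minus CD11c-), 995 to 315 and 1460 to 643 (the diet effects) with only the compared groups; 699 to 1233, 298 to 593 and 0 to 3 (CD11c- minus MHCIIlow in obese mice, in lean mice and as diet effects) with DESeq2; and 3284 to 5495 (CD11c+ minus MHCIIlow) without the lean monocyte-derived group. Depth limits mainly Ctsf and Ctsk in lean monocyte-derived cells.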
